A study of Mus musculus with 14 samples.

Results

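The ligands and receptors that steer growing axons were examined in adult mouse spinal cord. The genes were taken by symbol from the 2 gene tables of the spinal cord RNA-seq: Eph receptors, ephrins, semaphorins, plexins, neuropilins, netrins and netrin-G proteins, Unc5 receptors with Dcc, Slits and Robos. The rule gave 68 of the 19215 genes in the tables, in 9 families, and 74 of the 13189 cassette exon events, which lie in 31 of the 68 genes. An event is 1 cassette exon, which can be spliced into a transcript or left out of it, with a given pair of flanking exons. The 74 events hold 65 distinct exons.

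Axon guidance works through pairs of a cue and a receptor on the growth cone. Ephrins are membrane-bound and signal to Eph receptor kinases, and can signal back into the cell that carries them. Semaphorins act mostly through plexins, and most of the secreted class need neuropilins as co-receptors. Netrins attract through Dcc and repel through Unc5 receptors, and Slits repel through Robos. During development these cues position motoneuron axons and commissural axons of the spinal cord, and in the adult cord many of the genes stay expressed in neurons and glia. NOVA1 and NOVA2 are neuronal RNA-binding proteins that recognise YCAY tetramers in pre-mRNA and control alternative splicing and 3' ends. In their known pattern of action, binding after an alternative exon favours its inclusion and binding before or within it favours skipping.

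The study asked how NOVA acts on RNA in motoneurons (MNs) as against the whole spinal cord (WSC). HITS-CLIP crosslinks a protein to RNA in tissue and sequences the bound fragments. For MN CLIP, GFP-tagged NOVA2 driven by the Chat promoter of a bacterial artificial chromosome was recovered with a pair of anti-GFP monoclonal antibodies from pooled spinal cords of Chat:GFP-Nova mice, hemizygous, C57BL/6 background, 3 months old, in 2 transgenic lines, #6 and #17, with 4 libraries per line. For WSC CLIP, endogenous NOVA1 and NOVA2 were recovered with an anti-NOVA serum from wild-type C57BL/6 mice of 3 months. There were 4 libraries, each from 1 spinal cord. The WSC RNA-seq had 2 libraries of poly(A)-selected RNA, 1 from a male and 1 from a female mouse, both Tg(SOD1)2Gur/J (a transgene for wild-type human SOD1) on a B6/SJL background and 12 weeks old. MN and WSC CLIP thus differed in the NOVA proteins recovered, the cells, the tag, the antibody, the transgene and the pooling of animals. These cannot be told apart. The Chat promoter is also active in cholinergic neurons other than motoneurons. No MN RNA-seq was analysed here, so a difference in CLIP reads between MNs and WSC may come with a difference in the amount of the RNA, and the part of either was not tested.

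The MN libraries held 65961 to 871804 unique CLIP reads and the WSC libraries 2213104 to 6095995. The RNA-seq libraries held 72006019 (male) and 65625173 (female) reads on genes. Of the CLIP reads on genes, 33.2% to 46.6% lay on exons in the MN libraries and 60.7% to 65.9% in the WSC libraries. The 4 MN libraries numbered 1 and 2 of each line were made with a short 5' barcode and had reads of at most 34 or 47 nt, whereas the other 4 MN libraries and the WSC libraries had a long barcode and reads of up to 80 nt. The 3 tested markers of motoneurons (Chat, Chodl and Slc5a7) had more NOVA reads in MNs, with a summed level of all 6 motoneuron markers of 1350 to 3368 CPM in MN against 421 to 563 CPM in WSC libraries. CPM is the count of a gene scaled by the library's reads on the genes tested for CLIP reads (below) and by edgeR's TMM factor. The 4 markers of inhibitory neurons summed to 108 to 581.8 CPM in MN and 2733 to 3026 CPM in WSC libraries. The 4 astrocyte markers summed to 993 to 1978 CPM in MN and 2344 to 3052 CPM in WSC libraries. The 4 oligodendrocyte markers summed to 492 to 1321 CPM in MN and 1169 to 1442 CPM in WSC libraries, which overlapped, and neither of the 2 tested was called. The part of glial RNA in the differences below was not tested. Of the 3 tested markers of neurons at large, Snap25 was called higher in MNs, Tubb3 lower and Syt1 neither. Markers of Schwann cells and of skeletal muscle were at or near 0 in both groups.

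Most guidance genes were expressed in the adult cord. Levels were given as RPKM, reads scaled by exon length and by the library's reads on genes, which allows genes to be compared per length. Of the 68 genes, 61 (89.7%) had a mean of at least 1 RPKM over the 2 libraries, against 62.1% of all genes, and their median was 4.49 RPKM against 3.46. In the order of the mean levels, 20 of the 67 pairs of neighbours had ranges over the 2 libraries that did not overlap, so most neighbours were not separated by more than the spread between libraries. In bulk tissue, fewer cells of a type and less RNA per cell cannot be told apart.

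**Figure D1:**
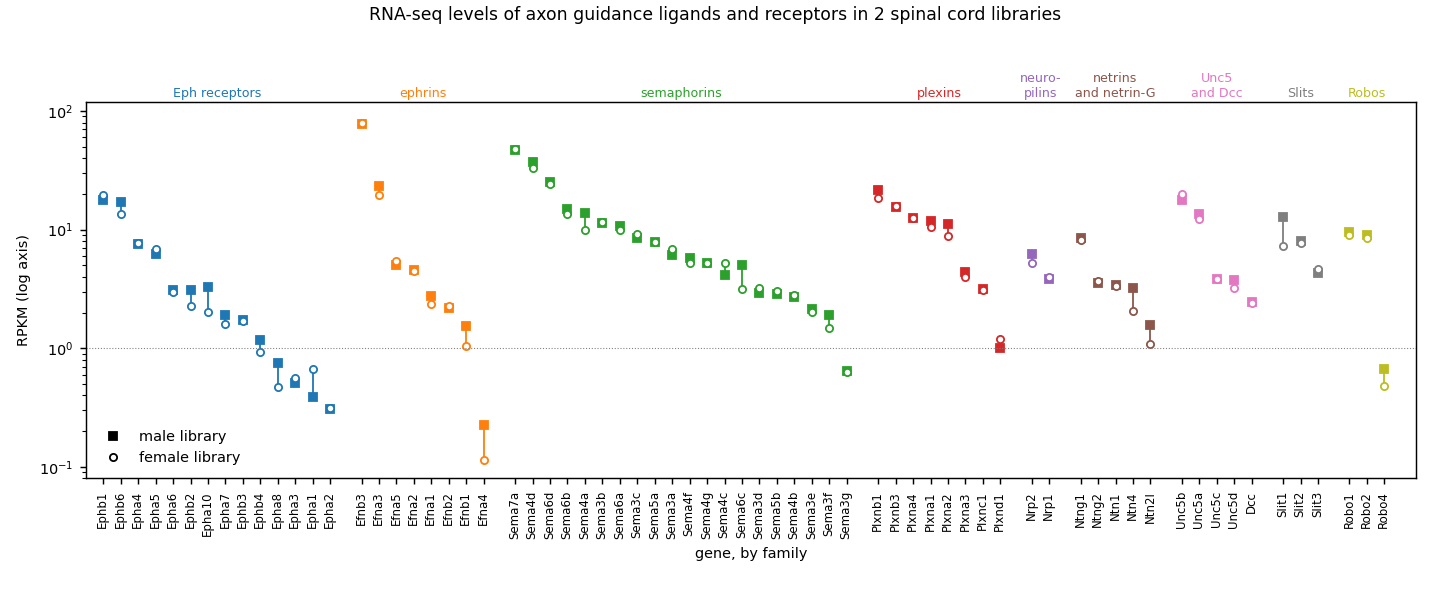
RPKM of the 68 genes in the male (filled squares) and the female (open circles) spinal cord RNA-seq library, on a log axis, by family and in order of the mean; lines join the 2 libraries and the dotted line marks 1 RPKM. Efnb3 was highest near 79 RPKM, plexins, netrins, Slits and the Unc5 and Dcc group were at 1 RPKM or above throughout, and the Eph receptors spread from 0.311 to 18.6 RPKM.

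Among the ligands, the membrane-bound ephrin Efnb3, known as a midline barrier to corticospinal axons, had the highest level of all members, 78.4 RPKM in the male and 79.1 RPKM in the female library. Efna3 followed among the ephrins at 23.5 and 19.6 RPKM and Efna5, a repellent in topographic mapping, at 5.03 and 5.46 RPKM. Efna4 was lowest of all members at 0.226 and 0.115 RPKM. The 8 ephrins had a median of 3.54 RPKM, and 7 of them reached 1 RPKM, so the family held both ends of the order.

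The 20 semaphorins had a median of 6.01 RPKM, and 19 reached 1 RPKM. Sema7a, a GPI-anchored semaphorin that signals through integrins, stood at 46.8 RPKM (male) and 48.1 RPKM (female). Sema4d, which is made by oligodendrocytes among other cells and acts on Plxnb1, stood at 36.8 and 33.2 RPKM, and the transmembrane Sema6d at 25.4 and 24.1 RPKM. These 3 and Efnb3 were the highest 4 members, each separated from the next by ranges that did not overlap. The secreted Sema3g was lowest at 0.641 and 0.633 RPKM.

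The 3 Slits, the secreted repellents, lay at 12.8 and 7.28 RPKM (Slit1), 8.08 and 7.71 RPKM (Slit2) and 4.30 and 4.66 RPKM (Slit3). Among the netrins, the GPI-anchored Ntng1 had 8.56 and 8.16 RPKM, Ntng2 3.55 and 3.71 RPKM and the classical cue Ntn1 3.41 and 3.37 RPKM, whereas Ntn2l (an older symbol of Ntn3) had 1.58 and 1.09 RPKM.

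Among the receptors, the 8 plexins had the highest family median, 10.7 RPKM, led by Plxnb1 (21.4 and 18.3 RPKM), Plxnb3 (15.7 and 15.7 RPKM) and Plxna4 (12.55 and 12.44 RPKM), with Plxnd1 lowest at 1.01 and 1.21 RPKM. The neuropilins Nrp2 (6.24 and 5.22 RPKM) and Nrp1 (3.86 and 3.99 RPKM) lay below that median. Of the netrin receptors, Unc5b had 17.7 and 19.9 RPKM, Unc5a 13.4 and 12.3 RPKM, Unc5c 3.83 and 3.81 RPKM and Dcc, the attractive receptor, 2.48 and 2.43 RPKM. Robo1 and Robo2, the neuronal Slit receptors, were close together at 9.488 and 9.003 RPKM and at 9.03 and 8.55 RPKM, and their ranges overlapped. Robo4, known from endothelium, had 0.669 and 0.485 RPKM.

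Only 10 of the 14 Eph receptors reached 1 RPKM, and their median was 2.20 RPKM. Ephb1 had 17.7 and 19.4 RPKM, the kinase-inactive Ephb6 17.1 and 13.5 RPKM, and Epha4, which guides motor and corticospinal axons, 7.61 and 7.69 RPKM. Epha2 was lowest at 0.306 and 0.316 RPKM. Epha3, which is taken up again for its CLIP reads, had 0.508 and 0.561 RPKM.

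Between the male and the female library, 41 of the 61 members at 1 RPKM or more were higher in the male and 20 in the female cord, and the median difference (log2 of female minus male, on log2(RPKM + 0.1)) was −0.07 against −0.01 over the 11940 genes at that level. With 1 library per sex this compares 2 libraries, not the sexes, and has no replicate check. The largest differences were those of Slit1 (−0.81), Sema6c (5.07 and 3.14 RPKM, −0.67), Epha10 (3.26 and 2.04 RPKM, −0.65), Ntn4 (3.23 and 2.06 RPKM, −0.62) and Efnb1 (1.54 and 1.04 RPKM, −0.53). A difference of over 0.5 was found in 6 of the 61 members (9.84%) and in 5.32% of genes.

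NOVA CLIP reads were found on 67 of the 68 genes, 15614 reads in the MN and 107322 in the WSC libraries. The number of WSC reads on a gene followed its genomic length (Spearman's rho 0.871 over the 68 members) more than its RPKM (rho 0.385). These are descriptions across genes that share libraries. To test MNs against WSC, reads were counted per gene by strand and compared with edgeR's quasi-likelihood test over 4291 genes at an FDR of 0.01 (Benjamini-Hochberg). Of the 68 genes, 33 had enough reads to be tested. The other 35 had 0 to 50 reads in all MN libraries together and 0 to 549 in all WSC libraries, and among them were Efnb3, Sema4d and Efna3.

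Guidance genes more often had more than fewer NOVA reads in MNs. Of the 33, 17 were higher in MNs, against 28.2% of all genes tested, and 4 were lower, against 28.8%. Either way 21 were called (63.6%), against a background of 56.9% of genes. The median log2 fold change of the 33 was 0.49, and that of all genes tested −0.02. The ranges of the MN and WSC libraries did not overlap for 14 members, each of them higher in MNs, and for 28.9% of genes. A filter on low values was passed by genes with reads in either group, so these counts describe the 33 and not the 68. Without the filter on low counts, 14 members were higher and 10 lower of 67 tested, against 8.02% and 15.7% of 14809 genes. Within the libraries with the long barcode, 17 members were higher and 6 lower of 47 tested, against 19.6% and 21.0% of 7579 genes, with a median of 0.19 against −0.04 over all genes. Between lines #17 and #6, no member passed the threshold. Of 22 members tested between the lines by edgeR, 0 were called and 0 had an unadjusted p under 0.05 (the smallest was 0.110), against 0.0% called of 1933 genes, of which 66 had an unadjusted p under 0.05. Same-numbered libraries of the lines deviated together (r of 0.132 to 0.3 over genes), and with the replicate number as a block 0 members and 0.0% of genes were called by edgeR, 146 genes had an unadjusted p under 0.05, and 1 member did, Robo2 (0.37 ± 0.17, line #17 over line #6, adjusted p 0.62).

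**Figure D2:**
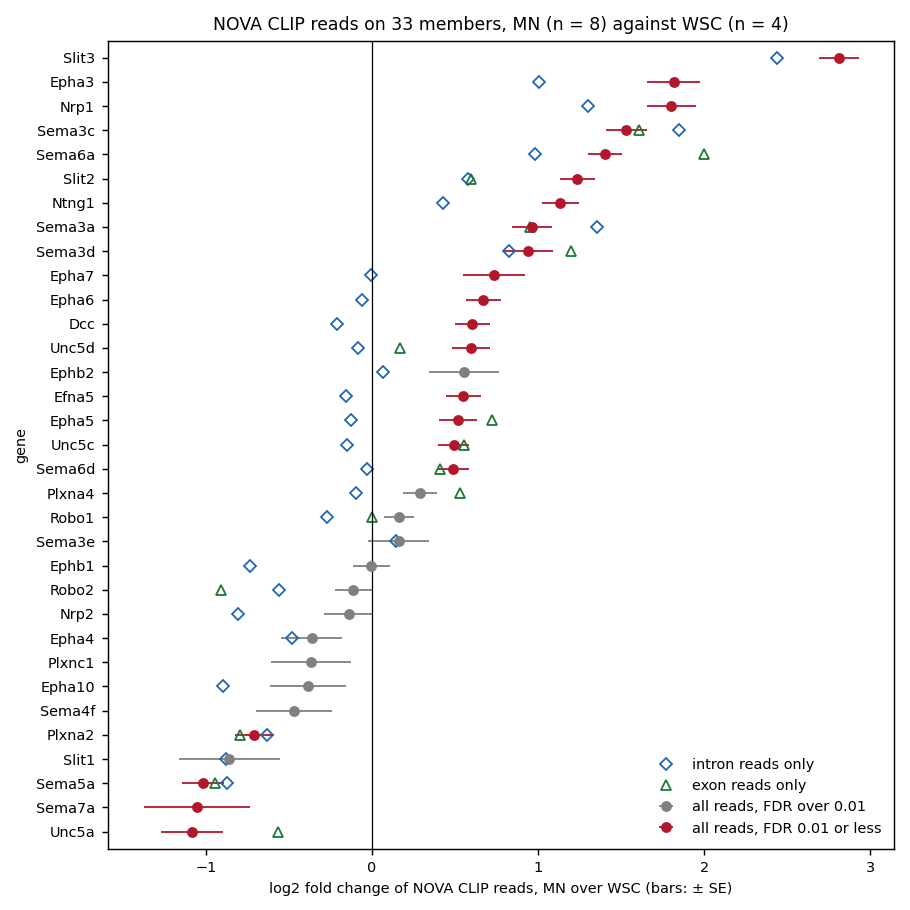
Log2 fold change of NOVA CLIP reads, MN over WSC, for the 33 members tested; filled points are all reads with standard errors as bars, red at FDR 0.01 or less, and open symbols are the same comparison with exon reads (triangles) or intron reads (diamonds) alone. Slit3 was highest at 2.81 and Unc5a lowest at −1.08, and 8 members called higher sat below 0 with intron reads alone.

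The largest change was that of Slit3, a secreted repellent that lies at chr11:34934726-35522009 (mm9, plus strand, as for the positions that follow unless said). Its level was 442 CPM in the lowest, 621 CPM in the median and 843 CPM in the highest MN library, and 84.0, 97.0, 82.3 and 83.3 CPM in WSC libraries 1 to 4. Each MN library was above each WSC library, by a log2 fold change of 2.81 ± 0.12 (SE, FDR 9.16e-18). Slit2 (chr5:48374394-48697521), its close relative, had 492, 816 and 1054 CPM in MNs and 305, 347, 345 and 367 CPM in WSC. These groups did not overlap either (1.24 ± 0.11, FDR 3.78e-11). Slit1, the third Slit, had 7.25, 23.6 and 87.9 CPM in MNs and 52.6, 54.0, 51.5 and 35.6 CPM in WSC and missed the threshold (−0.86 ± 0.30, FDR 0.0141). It was called lower with line #6 alone (−1.57 ± 0.45, FDR 0.00348), with the long-barcode libraries alone (−1.17 ± 0.32, FDR 0.00166) and without the filter (FDR 0.000492), but not with line #17 alone (−0.48 ± 0.32, FDR 0.236).

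The secreted semaphorins of class 3, most of which signal through neuropilin and plexin complexes, included 3 of the members with the largest changes. Sema3c (chr5:17080099-17236086) had 128, 179 and 211 CPM in MNs and 63.1, 60.2, 65.3 and 61.7 CPM in WSC, without overlap (1.53 ± 0.12, FDR 1.12e-11). Sema3a, the prototype growth cone collapsing factor (chr5:13125593-13602565), had 158, 259 and 369 CPM in MNs and 152, 146, 127 and 137 CPM in WSC, so that the lowest MN library lay just above the highest WSC library (0.96 ± 0.12, FDR 5.46e-08). Sema3d (chr5:12383166-12588943) had 94.9, 133 and 193 CPM in MNs and 63.5, 75.0, 58.6 and 83.3 CPM in WSC, again without overlap (0.94 ± 0.15, FDR 4.17e-06). Sema3e, the only other class 3 member with enough reads to be tested, had overlapping groups and a log2 fold change of 0.16 ± 0.18 (FDR 0.446). Sema3b, Sema3f and Sema3g had too few reads to be tested.

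Of the transmembrane semaphorins, Sema6a rose and Sema5a fell. Sema6a, a ligand of A-class plexins, had 346, 411 and 476 CPM in MNs and 171, 140, 150 and 156 CPM in WSC, without overlap (1.40 ± 0.10, FDR 1.33e-12). Sema6d changed less (0.49 ± 0.09, FDR 4.87e-05), from 391, 492 and 582.3 CPM in MNs against 334, 327, 367 and 336 CPM in WSC. Sema5a (chr15:32174568-32626096) had 141, 188 and 465 CPM in MNs and 411, 431, 426 and 373 CPM in WSC, where 1 MN library of line #17 reached above the WSC libraries and the other 7 lay below them (−1.02 ± 0.13, FDR 5.12e-08). Sema7a had few reads, 0, 15.9 and 105 CPM in MNs and 45.4, 46.5, 38.3 and 47.0 CPM in WSC. Its groups overlapped, and its call (−1.06 ± 0.32, FDR 0.00488) was lost with the long-barcode libraries alone (−0.86 ± 0.31, FDR 0.0173), without Chat17 MN replicate 2, and with line #17 alone (−0.75 ± 0.36, FDR 0.0903).

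Of the other ligands, Ntng1 (chr3:109582958-109938426, minus strand), a membrane-anchored netrin-G that binds a postsynaptic partner, had 489, 604 and 769 CPM in MNs and 217, 268, 278 and 303 CPM in WSC, without overlap (1.13 ± 0.11, FDR 5.56e-10). Efna5 had 305, 341 and 514 CPM in MNs and 229, 249, 270.2 and 270.1 CPM in WSC (0.55 ± 0.11, FDR 5.09e-05). No other netrin and no other ephrin had enough reads to be tested.

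**Figure D3:**
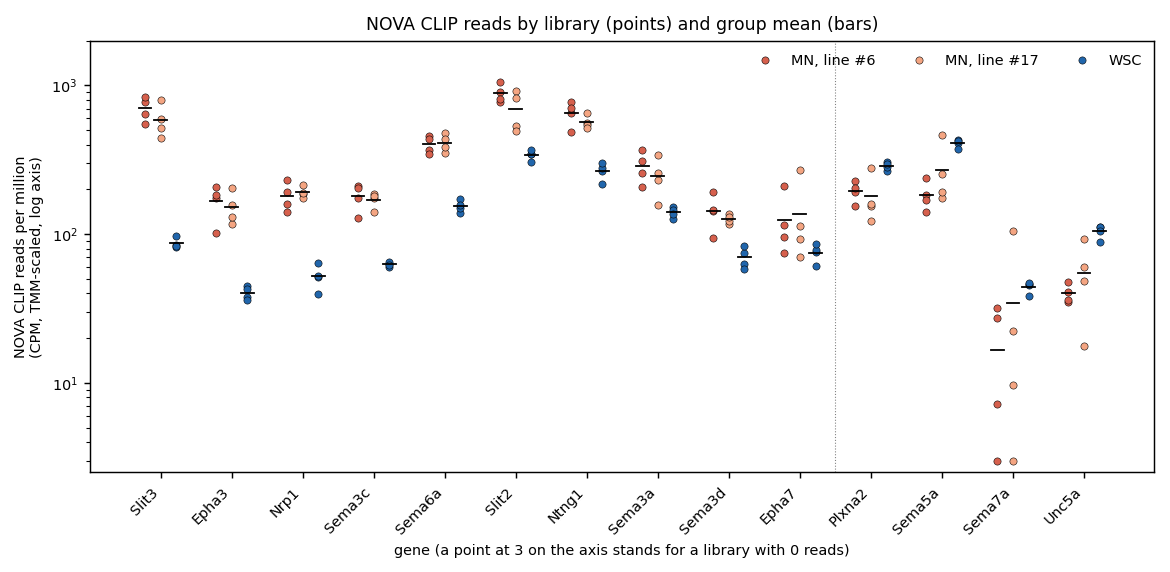
NOVA CLIP reads (TMM-scaled CPM, log axis) in each library for the 10 members with the largest increases and the 4 with a decrease; each point is 1 library, bars are group means, and MN libraries are split by line. The MN points of both lines lie above the WSC points for Slit3 to Sema3d, whereas Epha7 and the 4 members on the right overlap.

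Among the receptors, Nrp1, the co-receptor of class 3 semaphorins (chr8:130882973-131029362), had 141, 188 and 230 CPM in MNs and 51.8, 52.5, 64.4 and 39.4 CPM in WSC. The groups were well apart (1.80 ± 0.15, FDR 1.15e-11). Nrp2 had 80.3, 104 and 128 CPM in MNs and 117, 116, 110 and 100.4 CPM in WSC, which overlapped (−0.14 ± 0.15, FDR 0.402). Of the plexins, 3 had enough reads, and 1 of these was called. Plxna2, which pairs with Sema6a (chr1:196446023-196643063), had 123, 176 and 279 CPM in MNs and 268, 306, 282 and 298 CPM in WSC, with 1 MN library inside the WSC range (−0.71 ± 0.12, FDR 6.21e-06). Plxna4 (0.29 ± 0.10, FDR 0.0149) and Plxnc1 (−0.37 ± 0.24, FDR 0.177) were not called.

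The Eph receptors had 4 calls of 8 tested, in each case of the A class and higher in MNs. Epha3, a receptor expressed by medial motor column neurons in the embryo (chr16:63543364-63863984, minus strand), had 101, 167 and 208 CPM in MNs and 37.8, 44.5, 42.6 and 36.2 CPM in WSC, without overlap (1.81 ± 0.16, FDR 8.4e-11), although it was among the lowest members by RPKM in the whole cord. Epha7 had 70.3, 105 and 272 CPM in MNs and 61.1, 75.4, 77.8 and 86.4 CPM in WSC, which overlapped (0.74 ± 0.19, FDR 0.00113), and its call was lost with line #6 alone (0.59 ± 0.23, FDR 0.0344) and with DESeq2 (FDR 0.0218). Epha6 (0.67 ± 0.10, FDR 2.25e-06) and Epha5 (0.52 ± 0.11, FDR 0.000274) rose by less. Epha4, Epha10, Ephb1 and Ephb2 were not called, with log2 fold changes of −0.36 ± 0.18, −0.38 ± 0.23, −0.00 ± 0.11 and 0.55 ± 0.21.

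With all reads, the netrin receptors went in both directions, and the rises were not called with intron reads alone, as given below. Unc5a (chr13:55050772-55107379) had 17.6, 44.4 and 93.1 CPM in MNs and 112, 112, 89.3 and 105 CPM in WSC, so 1 MN library reached the WSC range (−1.08 ± 0.19, FDR 1.01e-05). Dcc had 1164, 1316 and 1601 CPM in MNs and 778, 847, 996 and 1037 CPM in WSC, without overlap (0.60 ± 0.10, FDR 1.03e-05). Unc5d rose by a like amount (0.60 ± 0.11, FDR 3.94e-05), as did Unc5c (0.49 ± 0.09, FDR 3.26e-05), the call of which was lost with line #17 alone (0.39 ± 0.13, FDR 0.0164). The Slit receptors Robo1 (316, 409 and 468 CPM in MNs; 376, 366, 373 and 371 CPM in WSC) and Robo2 (352, 538 and 884 CPM; 548, 562, 605 and 623 CPM) had overlapping groups and were not called (0.16 ± 0.09, FDR 0.115, and −0.11 ± 0.11, FDR 0.385), in contrast to the ligands Slit2 and Slit3. With exon or intron reads alone, Robo2 was called lower, as given below. The difference between ligands and receptors was not tested.

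The part of the gene that was counted changed some of these calls. Over all genes, MN libraries had the larger share of intron reads, as given above, and the part of this share in the calls was not tested. With intron reads alone, 29 members were tested, and 9 were higher, against 12.8% of 2548 genes, and 6 lower. In all 15 were called, against 26.6% of genes, and the members' median was −0.08 against 0.03 over all genes. The 9 were Slit3 (2.44 ± 0.11), Sema3c (1.85 ± 0.20), Sema3a (1.36 ± 0.15), Nrp1 (1.30 ± 0.15), Epha3 (1.01 ± 0.16), Sema6a (0.98 ± 0.15), Sema3d (0.82 ± 0.23), Slit2 (0.58 ± 0.10) and Ntng1 (0.43 ± 0.10). The other 8 members called higher with all reads, Dcc, Unc5c, Unc5d, Efna5, Epha5, Epha6, Epha7 and Sema6d, lay between −0.21 and −0.01 with intron reads alone and were not called. Plxna2 and Sema5a stayed lower, and Ephb1 (−0.73 ± 0.11, FDR 6.66e-07), Nrp2 (−0.80 ± 0.17, FDR 0.000196), Robo2 (−0.56 ± 0.10, FDR 4.63e-05) and Epha10 (−0.90 ± 0.23, FDR 0.00228) were called lower as well.

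With exon reads alone, 15 members were tested, and 7 were higher, against 24.8% of 2131 genes, and 3 lower, 10 in all against 49.4% of genes. Sema6a (2.00 ± 0.14), Sema3c (1.61 ± 0.18), Sema3d (1.195 ± 0.21), Sema3a (0.95 ± 0.17), Epha5 (0.72 ± 0.17), Unc5c (0.55 ± 0.16) and Plxna4 (0.53 ± 0.10) were higher, and Sema5a, Robo2 (−0.91 ± 0.17) and Plxna2 were lower. Sema3a, Sema3c, Sema3d and Sema6a were thus called higher in the exon and the intron reads taken apart. Sema5a, Plxna2 and Robo2 were called lower in both, although Robo2 was not called with all reads (−0.11 ± 0.11, FDR 0.385). Slit2 (FDR 0.0204), Sema6d (FDR 0.015), Unc5d (FDR 0.402) and Unc5a (FDR 0.027) were called with all reads but not with exon reads. Slit3, Nrp1, Epha3 and Ntng1 had too few exon reads to be tested.

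To see what RNA lay under the reads, 1 window of 100 nt was taken in each of the 33 tested members. It was the window with the largest sum of its share of all MN reads and its share of all WSC reads. As the MN libraries were shallower, an MN read weighed more than a WSC read in this choice. The windows held 1 to 9 YCAY motifs (CCAC or CCAT and likewise TCAC or TCAT, searched on the transcribed strand, overlapping matches counted), 3.82 on average, against 1.24 on the opposite strand of the same windows. The top windows of all 4291 tested genes held 4.09 on average, and the 106102 windows of 100 nt that tile the members' spans held 1.70. At least 5 motifs were found in 10 of the 33 windows (30.3%), in 34.7% of the windows of all genes and in 3.64% of tiles, so the members' windows were rich in the motif to the degree of NOVA-bound windows of other genes. Of the 33 windows, 12 lay in introns, 20 touched a UTR and 1 lay in coding sequence. The intron windows of the 4 members with the largest increases among those with such a window, Slit3, Epha3, Nrp1 and Slit2, are printed with those of 2 members not called with all reads, Nrp2 and Ephb2 (Nrp2 was called lower with intron reads alone, and Ephb2 higher with line #17 alone, 0.88 ± 0.23, FDR 0.00208). Sequences run 5' to 3' on the transcribed strand of mm9, with YCAY motifs in capitals:
Slit3, chr11:35401291-35401390, plus strand, intron: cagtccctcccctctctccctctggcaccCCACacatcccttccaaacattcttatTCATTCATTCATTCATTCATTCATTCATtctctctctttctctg
Epha3, chr16:63766365-63766464, minus strand, intron: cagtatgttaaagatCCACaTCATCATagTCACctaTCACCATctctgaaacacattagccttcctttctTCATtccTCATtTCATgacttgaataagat
Nrp1, chr8:130920188-130920287, plus strand, intron: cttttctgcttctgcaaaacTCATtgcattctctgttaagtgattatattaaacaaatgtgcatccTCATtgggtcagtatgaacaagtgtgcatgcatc
Slit2, chr5:48607880-48607979, plus strand, intron: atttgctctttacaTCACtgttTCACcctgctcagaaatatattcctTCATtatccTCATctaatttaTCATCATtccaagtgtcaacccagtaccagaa
Nrp2, chr1:62844901-62845000, plus strand, intron: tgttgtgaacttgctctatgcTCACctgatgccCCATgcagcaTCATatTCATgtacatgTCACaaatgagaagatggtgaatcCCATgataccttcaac
Ephb2, chr4:136224796-136224895, minus strand, intron: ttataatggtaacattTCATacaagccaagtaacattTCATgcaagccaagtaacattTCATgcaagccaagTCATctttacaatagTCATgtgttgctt

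The Slit3 window is a run of TCAT repeats with 8 motifs and held 36 MN and 19 WSC reads, and that of Nrp1, with 2 motifs, held 16 MN and 13 WSC reads, although MN libraries were shallower. The Epha3 window held 15 MN and 30 WSC reads on 9 motifs, the most of any member, and that of Slit2 23 MN and 79 WSC reads on 6 motifs. The Nrp2 window held 26 MN and 340 WSC reads on 6 motifs, and that of Ephb2, in which a short unit with TCAT recurs, 22 MN and 87 WSC reads on 5 motifs. The windows were chosen by their reads, with an MN read weighing more than a WSC read, which favours windows rich in MN reads. The reads in them are thus a description.

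Some of the windows took a large share of a gene's reads. In Unc5a, 1 window that touched a UTR held 36.4% of the MN reads and 49.6% of the WSC reads of the gene, and in Nrp2 the intron window printed above held 19.7% and 23.8%. In Dcc, with 1857 MN and 11570 WSC reads the most heavily covered member, the top window held 1.45% and 1.08%, so the reads were spread along the gene. The window of Sema7a lay in coding sequence and held 1 MN and 171 WSC reads.

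Splicing of the members in the whole cord was read from exon junctions. Of the 74 events, 58 had at least 10 junction reads in each RNA-seq library, over 52 distinct exons in 26 genes, and 16 did not. To obtain an inclusion rate, the reads of both inclusion junctions were averaged and divided by the sum of this average and the reads of the skipping junction. A mean rate over 90% was found for 25 of the 58 events, a rate under 10% for 7, and a rate from 10% to 90% for 26 (44.8%), against 27.4% of the 9396 events covered in all genes. The 26 events are 22 distinct exons in 15 genes, 18 of which (81.8%) have a length that is a multiple of 3 and so keep the reading frame where they are coding, against 60.6% of 2389 distinct exons with such rates in all genes. Coverage was low, with a median of 62.5 junction reads in the male and 44.5 in the female library. The 2 libraries differed by a median of 19.0 percentage points over the 26 events and by 9.20 over such events of all genes.

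**Figure D4:**
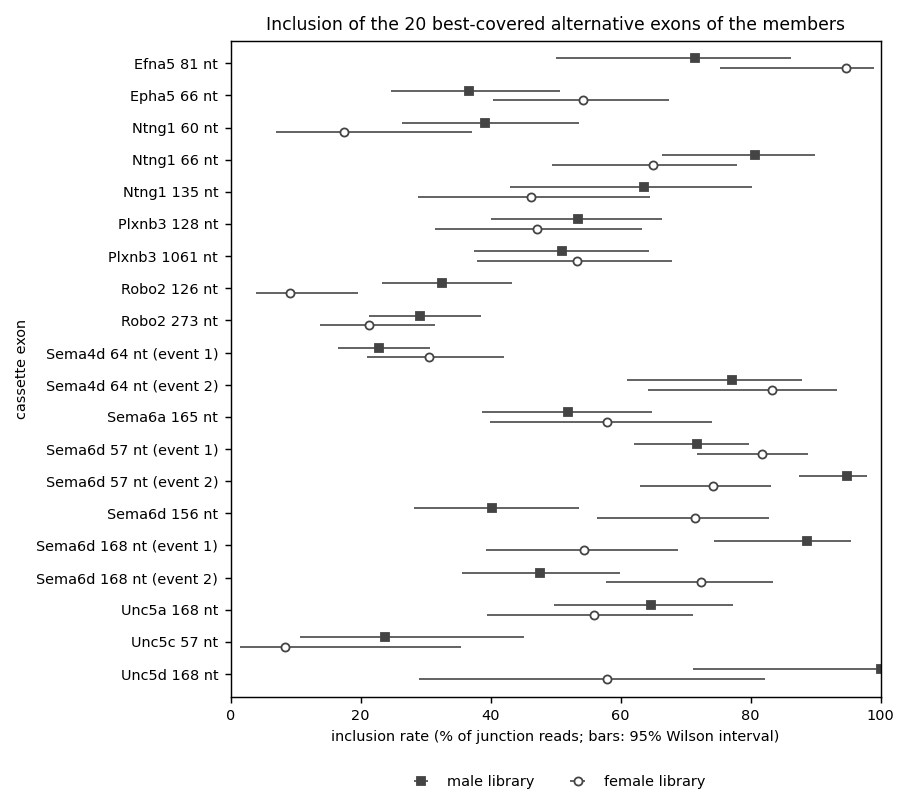
Inclusion rate of the 20 best-covered member events with a mean rate from 10% to 90%, in the male (squares) and female (circles) library, with 95% Wilson intervals, which cover counting error only. The intervals of the 2 libraries overlap for most events, and are apart for Robo2 126 nt, Sema6d 57 nt (event 2), Sema6d 156 nt and Sema6d 168 nt (event 1).

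Such exons were found in 7 of the 9 families and in none of the Slits or neuropilins. No neuropilin event had at least 10 junction reads in each library, so that family could not be judged. The Epha5 exon of 66 nt was included at 36.7% (95% Wilson interval 24.7% to 50.7%) in the male and 54.2% (40.3% to 67.4%) in the female library, and the Efna5 exon of 81 nt at 71.4% and 94.7%. Of the Robo2 exons, that of 126 nt was at 32.5% (23.3% to 43.3%) and 9.09% (3.95% to 19.6%), and that of 273 nt at 29.2% and 21.2%. The difference of the 126-nt exon did not pass the threshold with the deposited counts (Fisher's exact test, FDR 0.107) and passed it with junction reads alone (FDR 0.00445). The Slit2 exons of 24 and 27 nt, in turn, were mostly included, at 100% and 84.2% and at 91.3% and 89.5%, and are named here after their values were seen.

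Of the netrin receptors, the exon of Unc5a of 168 nt stood at 64.7% and 55.9%, that of Unc5c of 57 nt at 23.8% and 8.33%, and that of Unc5d of 168 nt at 100% and 57.9%. The rates of Unc5c rest on 26 and 13 junction reads and those of Unc5d on 19 and 15 (Fisher's exact test, FDR 0.909 and 0.614). Ntng1 had a series of alternative exons, with 39.1% and 17.4% for that of 60 nt, 80.7% and 65.0% for that of 66 nt and 63.6% and 46.2% for that of 135 nt. With another upstream flank, the 135-nt exon was at 100% in both libraries. The Ntng1 exon of 168 nt moved most of all member events between the libraries, from 100% to 46.7% in 1 of its 2 events, on 16 and 11 junction reads (Fisher's exact test, FDR 0.598). The Plxnb3 exons of 128 and 1061 nt, which share an end, stood at 53.4% and 47.1% and at 51.0% and 53.2%. The exon of Sema6a of 165 nt stood at 51.9% and 57.9%, and that of Sema4d of 64 nt, which is not coding in the annotation, at 22.8% and 30.5%, at 77.1% and 83.3% or at 100% and 100%, depending on the pair of flanking exons. The 2 inclusion junctions of some of these exons were unequal. They had 2 and 52 reads (male) and 3 and 30 (female) for Sema6a, and 6 and 49 and 6 and 32 for Unc5a. Those of Plxnb3 and of the Ntng1 135-nt exon were unequal as well, so these rates depend on the averaging. The Sema4g exon of 186 nt went from 4.76% to 52.9% on 11 and 13 junction reads (FDR 0.217).

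Of the 58 member events, 3 (5.17%) differed between the male and the female library (Fisher's exact test on the deposited inclusion and skipping counts, FDR 0.1), against 4.26% of all 9396 events. All 3 belong to Sema6d, a semaphorin with several known isoforms, and they share junction reads. The Sema6d exon of 57 nt (chr2:124486441-124486497), where the next exon was skipped, was included at 94.8% (87.5% to 98.0%) in the male and 74.3% (63.0% to 83.1%) in the female library (FDR 0.0191). In its other event, with the next exon as the downstream flank, the same exon went the other way, from 71.7% to 81.8%, and was not called (FDR 0.655). The alternative form of 156 nt of the next exon (chr2:124487940-124488095) rose from 40.2% (28.1% to 53.5%) to 71.4% (56.4% to 82.8%) (FDR 0.0190), and its form of 168 nt, counted from the 57-nt exon, from 47.5% to 72.4% (FDR 0.0276). Counted from the exon before the 57-nt exon, the 168-nt form went from 88.7% to 54.4% and was not called (FDR 0.141). The junction that skips both exons had 4 reads in the male and 18 in the female library, that from the 57-nt exon past the next exon had 32 and 12, and that from the 57-nt exon to the next exon had 22 and 34. With junction reads alone, 4 member events in 2 genes were called. The call of the 168-nt form counted from the 57-nt exon was lost (FDR 0.125), while its event from the exon before (FDR 0.0392) and the Robo2 exon of 126 nt (FDR 0.00445) passed. With 1 library of each sex, the test compares the 2 libraries.

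NOVA reads near the alternative exons were about as frequent in the members as in other genes. Within 400 nt of an exon, 55 of the 65 distinct member exons (84.6%) had at least 1 WSC read, against 72.3% of 12235 exons of all genes, 18 (27.7%) at least 10, against 24.5%, and 9 (13.8%) at least 20, against 14.2%. For MN reads, 31 (47.7%) had at least 1, against 44.1%, and 3 (4.62%) at least 10, against 3.49%. The 3 were the Epha5 66-nt exon with 53 MN and 348 WSC reads, the Slit2 24-nt exon with 20 and 39, and the Ntng1 168-nt exon with 16 and 42. The median member exon had 0 MN reads and 2 WSC reads.

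The exons of Epha5, Slit2 and Ntng1 are shown as the 3 with at least 10 MN reads, and that of Robo2 for its motif-rich cluster, a choice made after the values were seen. Exons are in capitals with 40 nt of intron on either side in lower case, 5' to 3' on the transcribed strand of mm9, and all 4 are annotated as coding:
Epha5 66-nt exon, chr5:84546546-84546691, minus strand: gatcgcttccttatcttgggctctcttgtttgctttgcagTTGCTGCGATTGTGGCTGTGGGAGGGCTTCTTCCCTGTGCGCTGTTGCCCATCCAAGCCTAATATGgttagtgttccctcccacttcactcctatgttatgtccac
Slit2 24-nt exon, chr5:48612166-48612269, plus strand: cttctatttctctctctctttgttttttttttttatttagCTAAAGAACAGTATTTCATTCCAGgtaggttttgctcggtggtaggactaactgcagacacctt
Ntng1 168-nt exon, chr3:109635346-109635593, minus strand: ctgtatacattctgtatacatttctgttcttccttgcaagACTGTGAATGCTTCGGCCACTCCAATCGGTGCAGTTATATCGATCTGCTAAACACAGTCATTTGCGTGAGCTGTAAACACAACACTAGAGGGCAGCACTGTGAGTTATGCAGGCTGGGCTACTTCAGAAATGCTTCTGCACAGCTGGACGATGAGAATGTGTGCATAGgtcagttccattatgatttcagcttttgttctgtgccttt
Robo2 126-nt exon, chr16:73933251-73933456, minus strand: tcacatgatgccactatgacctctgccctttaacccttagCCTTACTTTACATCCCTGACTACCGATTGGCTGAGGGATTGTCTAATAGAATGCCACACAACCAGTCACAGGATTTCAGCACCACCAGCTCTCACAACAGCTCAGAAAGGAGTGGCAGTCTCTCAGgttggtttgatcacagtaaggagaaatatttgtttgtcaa

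The clusters are the 100-nt windows with the most reads beside each exon, with YCAY motifs in capitals, again 5' to 3' on the transcribed strand of mm9:
Epha5, 300 to 399 nt after the exon, chr5:84546187-84546286, minus strand: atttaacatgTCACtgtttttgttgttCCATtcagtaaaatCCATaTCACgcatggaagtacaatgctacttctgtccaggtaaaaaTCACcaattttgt
Slit2, 70 to 169 nt after the exon, chr5:48612299-48612398, plus strand: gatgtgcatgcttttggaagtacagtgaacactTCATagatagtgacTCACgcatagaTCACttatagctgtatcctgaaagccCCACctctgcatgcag
Ntng1, 162 to 261 nt before the exon, chr3:109635715-109635814, minus strand: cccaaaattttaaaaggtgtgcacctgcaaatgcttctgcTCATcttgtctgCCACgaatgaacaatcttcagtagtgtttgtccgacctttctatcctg
Robo2, 174 to 273 nt before the exon, chr16:73933590-73933689, minus strand: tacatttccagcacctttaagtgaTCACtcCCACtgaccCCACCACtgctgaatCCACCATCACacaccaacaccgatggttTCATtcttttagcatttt

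The Epha5 cluster was present in each CLIP library. It held 5, 3, 4 and 5 reads in libraries 1 to 4 of line #6, 6, 5, 4 and 10 in those of line #17 and 51, 92, 102 and 77 in those of WSC, 42 and 322 in all, on 5 motifs, a number reached by 3.64% of the tiles. Its exon was the one included at 36.7% and 54.2%. The Slit2 cluster held 11 MN and 14 WSC reads on 4 motifs (10.3% of tiles), beside an exon that was mostly included. The fullest WSC bin lay outside the printed Slit2 window. It began 300 nt from the first base of the exon and held 15 WSC and 3 MN reads. The Ntng1 reads lay mostly before the exon, 11 MN and 27 WSC reads within 400 nt, but spread out, so that the fullest window held 6 and 12 reads on 2 motifs (49.6% of tiles), and that exon was at 100% and 46.7% in 1 event and at 36.0% and 6.67% in the other. In the latter event, 1 inclusion junction had 0 reads in both libraries. The Robo2 cluster lay before the exon and held 5 MN and 25 WSC reads on 8 motifs (0.158% of tiles), and its exon was included in the minority of transcripts in both libraries. No comparison with NOVA removed was analysed, and the effect of these reads on the exons was not tested.

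**Figure D5:**
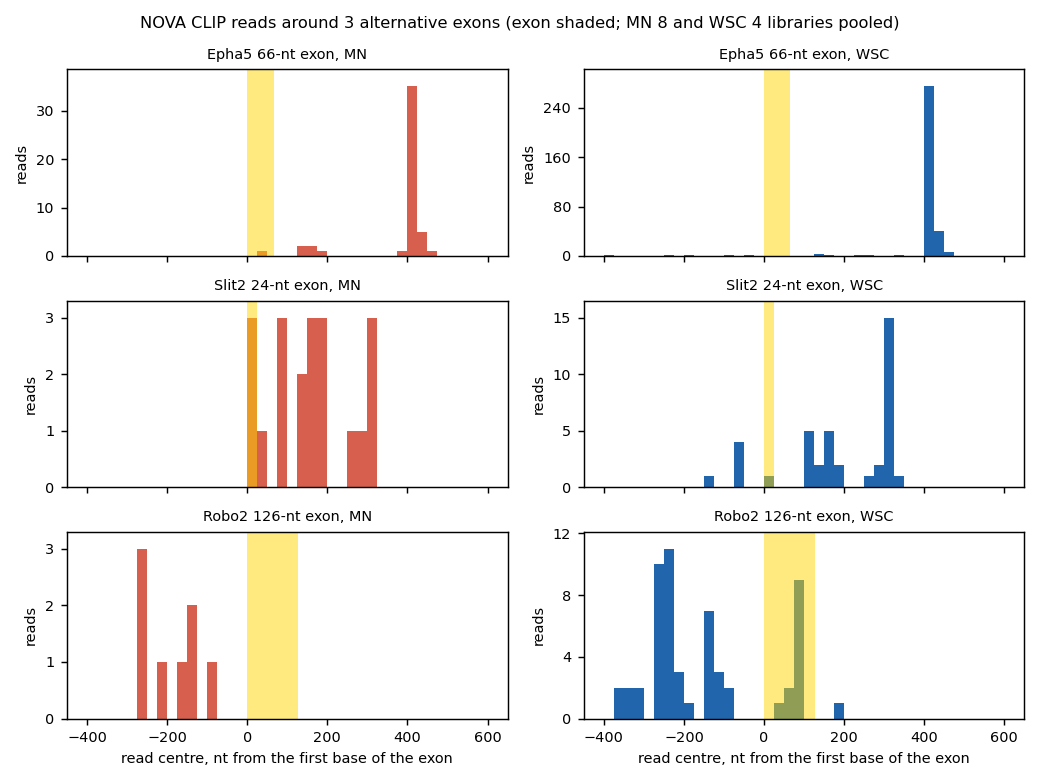
NOVA CLIP reads around the alternative exons of Epha5, Slit2 and Robo2, in MN (left, 8 libraries pooled) and WSC (right, 4 libraries pooled); the x axis is the distance of the read centre from the first base of the exon in nt, the y axis the number of reads per bin, with a separate scale per panel, and the shaded band is the exon. The Epha5 reads stand in 1 peak past the exon in both groups, the Slit2 reads lie mostly after and the Robo2 reads mostly before the exon.

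The rest of the pathway was looked at in a fixed list of 71 genes, of which Draxin was not analysed here. Each of the other 70, which cover further receptors, adaptors and cytoskeletal effectors, had at least 1 RPKM, with a median of 13.0 RPKM. Of 49 tested for CLIP reads, 18 were higher and 9 lower in MNs, with a median log2 fold change of 0.22, against 28.2% and 28.8% of all genes. Higher were, among others, the actin-binding Ablim1 (1.22 ± 0.10, FDR 1.62e-11), the collapsin response mediator Dpysl5 (1.17 ± 0.20, FDR 1.01e-05), the kinase Rock1 (1.08 ± 0.15, FDR 3.47e-07), focal adhesion kinase Ptk2 (0.87 ± 0.11, FDR 5.69e-08) and Srgap1 (0.81 ± 0.14) and Srgap2 (0.79 ± 0.10), which act downstream of Slit and Robo. The third gene of that family, Srgap3, was lower (−0.47 ± 0.10, FDR 0.000151). The others of the 9 lower genes included Lingo1 (−1.38 ± 0.19, FDR 2.74e-07) and Omg (−1.19 ± 0.27, FDR 0.000289), a co-receptor and a ligand of the myelin inhibitor pathway, with Rtn4 (−0.42 ± 0.13, FDR 0.00674), the gene of Nogo, and Flrt2 (−1.35 ± 0.22, FDR 4.22e-06), which binds Unc5d. The rest of the 9 were Rgmb (−0.93 ± 0.21), Limk1 (−0.84 ± 0.12), Arhgef12 (−0.79 ± 0.12) and Enah (−0.58 ± 0.09).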

How the data were processed

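CLIP files deposited by the authors list 1 unique read per line (Novoalign, mm9, copies collapsed by a degenerate barcode). Per the labels, the notes of 1 library also name mm10, but its reads fit mm9 like the rest. Read counts per gene were made here from these positions, by strand, over mm9 gene spans (all 68 members matched), leaving out reads in several genes. The deposited RNA-seq tables hold counts and RPKM per gene and counts per exon junction, which the authors made with OLego and Quantas from uniquely mapped reads (100 nt, trimmed to 74). The CLIP files also hold a score per read, written by the authors' pipeline and not used here.

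MN and WSC counts were compared with edgeR 4.0.16 (TMM, filterByExpr, quasi-likelihood, FDR 0.01) and exons with Fisher's exact test in SciPy 1.17.1 (FDR 0.1), each adjusted over all genes or exons and tested on simulated data. DESeq2 1.42.0, other filters, parts of the gene, lines and left-out libraries were alternatives. Intervals cover counting error only. The members and lists were chosen with earlier results of these data known. Named were the 3 highest and the lowest member by RPKM in each family, up to 10 called members in each direction by fold change, the 20 best-covered exons at 10% to 90%, called exons, and the 5 genes and 5 exons that differed most between the RNA-seq libraries. Other members were named after their values were seen, to complete a family, and higher pathway genes were named after theirs were seen. Replicates are described as biological by the labels.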

Additional observations from a re-analysis of the deposited data

Results flagged for a closer look

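In 1 of 42 groups of 4 libraries examined for the 14 members with per-library CLIP values in the figure, a library stood apart by Dixon's criterion. This was the WSC level of Slit3, with 97.0 CPM in replicate 2 against 84.0, 82.3 and 83.3 CPM in the others. Chance gives such a mark in about 1 in 20 groups. The MN libraries of Slit3, at 442 to 843 CPM, lay far above this value, and without WSC replicate 2 the gene was still called.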

How the results depend on the processing

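Leaving out 1 of the 12 CLIP libraries at a time gave 20 to 22 called members, 17 to 18 higher and 3 to 5 lower in MNs. With exon reads only, 10 were called and 7 higher, with 12 of the 21 called members tested and 4 of these lost. With intron reads only 9 were higher, with 19 of the 21 tested. Without a filter on low counts 10 were lower. With intron reads only, the log2 fold changes of Dcc (−0.21), Efna5 (−0.15), Epha5 (−0.13), Epha6 (−0.058), Epha7 (−0.0051), Unc5c (−0.15), Unc5d (−0.081) and Sema6d (−0.032) changed sign, with FDRs of 0.0531 to 0.987. Without a filter, Efna5, Epha5, Sema6d and Unc5c lost their call, as did Sema6d with line #6 alone and Epha5 with 10 kb added to genes; the cause was not tested. With 200 nt beside the exons, 11 member exons had 10 or more WSC reads and 1 had 10 or more MN reads, as fewer reads lie in a smaller window. Inclusion counts not halved raised all 26 intermediate rates, 19 of them by 1 SD or more. With the replicate block, 20 members were called and Sema7a was lost. Same-numbered libraries did not deviate together throughout (r over 1804 genes of 0.132 to 0.3 between the lines, but −0.143 to 0.0959 between MN and WSC), so the numbers were not taken to pair MN with WSC, and not every library correlated best with its own number. With the block between the lines, added after seeing the data, 0 members were called as without it. Read number limited the comparison, with 35 of 68 members untested, and 2 RNA-seq libraries allow no test of sex.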
